A study of Mus musculus with 24 samples.

Results

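Transforming growth factor beta (TGF-beta) signalling was followed at the RNA level through 10 genes: the ligands Tgfb1, Tgfb2 and Tgfb3, the receptors Tgfbr1 and Tgfbr2, the signal carrier Smad3, the corepressors Ski and Skil, and the feedback inhibitors Smad7 and Pmepa1. They were taken by symbol from a table of read counts for 21669 genes. The list was chosen by measured values of these data as well as by role. It was selected on the higher Pmepa1 and Skil in K-Luc cells given SWNT/CpG than in those given CpG+SWNT/LP. The opposite directions of Pmepa1 in the 2 cell lines also chose it. Those differences are given below as descriptions, with no test.

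RNA of 2 mouse cell lines, sequenced as 24 libraries, was collected after a migration assay in culture-insert dishes. K-Luc is a glioma line, KR158B cells of C57BL/6 origin that express luciferase, and RAW-Blue is a macrophage line of RAW origin with a secreted alkaline phosphatase reporter of NF-kB and AP-1 activity. All groups were kept in DMEM with serum, antibiotics and HEPES, given 24 h to attach, and then treated for 17 to 19 h (K-Luc) or 47 to 50 h (RAW-Blue). The untreated cells received water. The CpG group received the DNA oligonucleotide CpG-28 at 10 µg/mL, and the SWNT/LP group received single-walled carbon nanotubes at 10 µg/mL held in suspension by Lipid-PEG2000-OMe at 10 µg/mL. The CpG+SWNT/LP group received both of these, unjoined. The SWNT/CpG group received 10 µg/mL of nanotubes coated with 10 µg/mL of CpG-28, without the lipid. SWNT/CpG and CpG+SWNT/LP therefore differed in the lipid as well as in the joining, and these cannot be told apart. K-Luc was untreated in 2 libraries and had 3 for each treatment, while all RAW-Blue groups had 2. No group received DNA without CpG, treatment time and plating differed between the lines, and each cell type is 1 established line, so line, plating and duration cannot be told apart. The labels do not say whether replicates were separate cultures, so the p-values measure only the spread between these samples, which may be technical.

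TGF-beta ligands are secreted in a latent form, are released outside the cell, and bind a pair of kinase receptors in which Tgfbr2 activates Tgfbr1. The active receptor phosphorylates Smad2 and Smad3, which enter the nucleus with Smad4 and switch target genes on or off. Among the targets are the pathway's own brakes: Smad7 blocks the receptor, Pmepa1 binds receptor-activated SMADs and keeps them from the receptor, and Ski and Skil hold SMADs in a repressed state. In glioma the ligands are known for their part in invasion and immune suppression, and in macrophages for restraining inflammatory activation.

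Libraries held 13318636 to 24130359 counts. The 8 macrophage markers summed to 4480 to 5240 CPM (counts scaled to a common library size) in RAW-Blue, each at 1 CPM or more in every library, and to 11.1 to 16.5 in K-Luc. In RAW-Blue this sum was 4580 to 4900 in untreated cells, 4480 to 4520 with SWNT/LP and 5040 to 5240 in the 3 groups given CpG, so it moved with the oligonucleotide, and its part in the results below was not tested. Of 6 glial and neural stem markers, 2 reached 1 CPM in every K-Luc library and Olig2 was at 0 in all of them, and their sum was 344 to 381 in untreated cells, 351 to 372 with SWNT/LP and 284 to 325 in the 3 groups given CpG; the part of these markers too was not tested. The 6 fibroblast and vascular markers summed to 97.6 to 122 CPM in K-Luc, with 1 of 6 at 1 CPM in every library, and to at most 2.75 in RAW-Blue. Some libraries stood apart. The 2 untreated RAW-Blue libraries differed with a chi-square of 43.2 per degree of freedom, against 1.95 to 5.78 for pairs within the other RAW-Blue groups, so RAW-Blue differences from untreated are given with and without each of them. Leaving out either leaves 1 and removes the spread between the 2. Calls gained that way do not measure untreated variation. In the treated K-Luc groups replicate 1 differed from replicates 2 and 3 (7.92 to 14.5) more than these differed from each other (2.63 to 3.44). Of the K-Luc libraries, 3 (replicate 1 of untreated, CpG+SWNT/LP and SWNT/CpG) came from a separate run, for which the K-Luc fit has a term. Replicate 1 of CpG (8.94 and 9.83) and of SWNT/LP (14.5 and 9.76) stood apart too. These are of run 2, so the run term does not cover their difference.

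Levels were compared between genes per length, as the authors' RPKM. In the 2 untreated K-Luc libraries Tgfb1 was at 34.8 and 28.8 RPKM, Pmepa1 at 36.8 and 25.9, Tgfb3 at 32.3 and 23.7 and Ski at 29.6 and 25.5, and these 4 overlapped. Skil (14.7 and 13.4), Tgfbr2 (13.9 and 13.2) and Smad3 (13.3 and 12.9) came next, each overlapping its neighbour, followed without overlap by Tgfbr1 (8.1 and 7.5), Smad7 (6.1 and 6.4) and Tgfb2 (4.0 and 3.5). The macrophages ordered the genes differently. In the 2 untreated RAW-Blue libraries Tgfb1 stood first with 110.5 and 81.0 RPKM, then Tgfbr2 with 40.4 and 37.0, Ski with 14.5 and 13.2, and Tgfbr1 with 6.5 and 11.5. Smad3 (3.8 and 3.6) and Skil (3.1 and 4.1) overlapped, as did Smad7 (0.9 and 0.6) and Pmepa1 (0.6 in both), and Tgfb3 (0.1 in both) and Tgfb2 (listed at 0.0) were the lowest. The glioma cells thus had RNA of all 3 ligands, whereas macrophage ligand RNA was nearly all Tgfb1.

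Each treatment was set against untreated cells of its line by edgeR's quasi-likelihood test, and a gene was called at a Benjamini-Hochberg adjusted p under 0.05 over all genes tested. All 10 genes were tested in K-Luc and 9 in RAW-Blue, where Tgfb2 had too few counts. With SWNT/LP none of them was called in either line, also with DESeq2, and none had an unadjusted p under 0.05 with either tool, while 0.129% of all genes were called in K-Luc (0.0886% higher, 0.0403% lower) and 0.478% in RAW-Blue (0.434% higher, 0.0434% lower). In K-Luc, 5 of the 10 were called higher with CpG (17.9% of all genes) and 2 lower (18.4%), 5 higher with CpG+SWNT/LP (16.1%) and 3 lower (17.8%), and 8 higher with SWNT/CpG (21.8%) and 1 lower (21.3%). In either direction the shares of all genes called were 36.2%, 33.9% and 43.1%. The counts for SWNT/CpG and CpG+SWNT/LP take in genes chosen for their levels in those groups, here and in RAW-Blue, so nothing is read from them. K-Luc had 2 untreated libraries, and leaving out the second left 1, of run 1. Every library of the CpG group and of the SWNT/LP group was of run 2. Fewer genes were then called among all genes as well. A call lost in that fit, here and below, therefore does not single out the second library. With CpG+SWNT/LP the count was 5 without that group's own replicate 1.

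In RAW-Blue, 0 of 9 genes were called higher with CpG (5.18% of all genes) and 2 lower (5.6%), 1 higher with CpG+SWNT/LP (10.1%) and 2 lower (10.1%), and 0 higher with SWNT/CpG (12.8%) and 4 lower (10.4%). In either direction the shares of all genes were 10.8%, 20.3% and 23.2%. In either direction, 3 genes had an unadjusted p under 0.05 in edgeR with CpG and 7 with SWNT/CpG, and DESeq2 called 3 and 5. Every RAW-Blue group had 2 libraries, so leaving out 1 of those compared leaves a group with 1. Calls among all genes then changed as well, so nothing is read from counts of the 9 genes in such fits. All 4 comparisons of a line share its untreated libraries, so their results are not independent of one another.

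**Figure D1:**
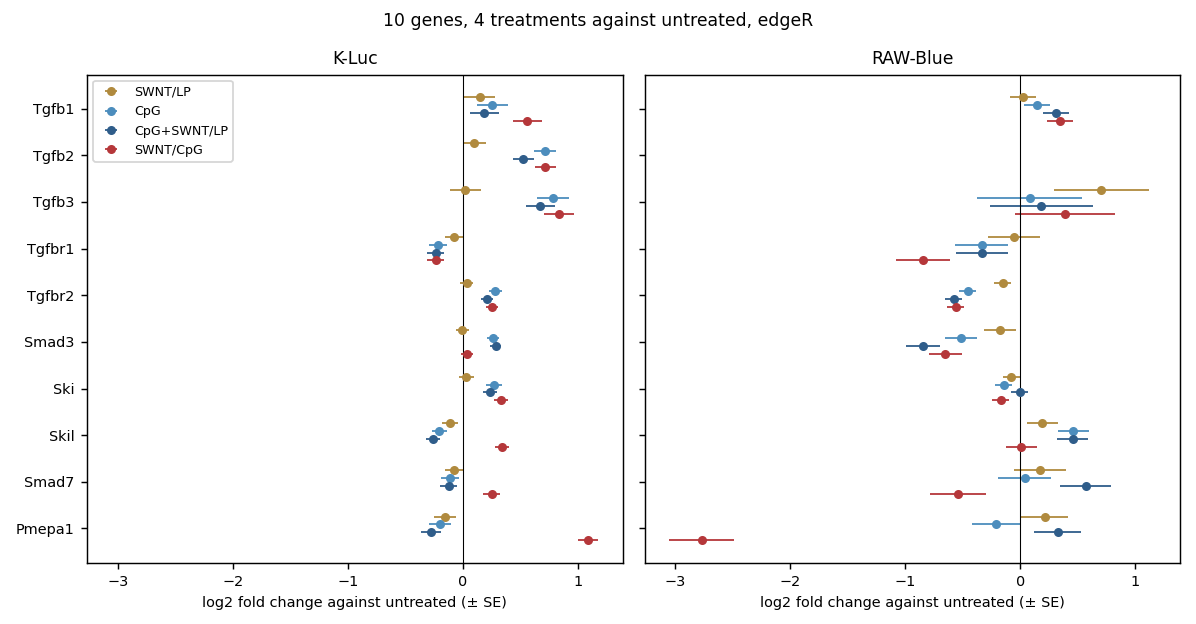
Log2 fold change against untreated cells of the same line (x axis, ± SE, edgeR) for the 10 genes (y axis) in K-Luc and RAW-Blue, with 1 colour per treatment; Tgfb2 was not tested in RAW-Blue. Pmepa1 with SWNT/CpG lies at 1.09 in K-Luc and at -2.77 in RAW-Blue, farther from 0 than any other point of its panel.

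The ligands rose in the glioma cells when CpG DNA was present. Tgfb2 and Tgfb3 rose with all 3 CpG-bearing treatments, whether or not the DNA coated the nanotubes, and Tgfb1 rose with SWNT/CpG. Tgfb2 stood at 28.6 and 24.8 CPM in untreated K-Luc libraries, 29.2, 23.7 and 25.6 with SWNT/LP, 42.1, 39.7 and 38.4 with CpG, 42.1, 35.6 and 34.5 with CpG+SWNT/LP and 48.8, 43.5 and 36.1 with SWNT/CpG. All 9 libraries given CpG lay above the 5 without it. The log2 fold change was 0.72 ± 0.10 (SE) with CpG (adjusted p = 4.98e-05), 0.53 ± 0.09 with CpG+SWNT/LP (0.000502) and 0.72 ± 0.09 with SWNT/CpG (1.24e-05), and these calls held in all 12 alternatives tried for each. Between runs Tgfb2 differed by -0.26 (run 2 minus run 1, adjusted p = 0.0204).

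Tgfb3, a ligand known from mesenchymal tissues, rose in K-Luc with the same 3 treatments. It stood at 163 and 119.5 CPM in untreated K-Luc libraries, 159, 113 and 126 with SWNT/LP, 245, 207 and 222 with CpG, 230.1, 205 and 219 with CpG+SWNT/LP and 255, 229 and 247 with SWNT/CpG. Again the groups with and without CpG did not overlap. Its log2 fold change was 0.78 ± 0.14 with CpG (adjusted p = 0.00108), 0.67 ± 0.13 with CpG+SWNT/LP (0.00194) and 0.84 ± 0.13 with SWNT/CpG (0.000259). The first and second of these lost their call without untreated replicate 2 (0.57 with adjusted p = 0.0646, and 0.49 with 0.0761). Neither Tgfb2 nor Tgfb3 was called between SWNT/CpG and CpG (differences of 0.00 ± 0.08 and 0.05 ± 0.11) or between SWNT/CpG and CpG+SWNT/LP (0.19 ± 0.08 with adjusted p = 0.0951, and 0.16 ± 0.11 with 0.360). Other settings called some of these differences. Against CpG+SWNT/LP, Tgfb2 was called without the third SWNT/CpG library (0.27, adjusted p = 0.0309), with a replicate block (0.19, 0.00584) and in a fit of the compared groups alone (0.19, 0.0208). Tgfb3 was called against CpG+SWNT/LP with the block (0.16, 0.0238) or the compared groups alone (0.16, 0.000848), and against CpG with the block (0.16, 0.0411).

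Tgfb1, the ligand best known from immune cells, behaved otherwise. In K-Luc it was at 108 and 89.7 CPM untreated, 122, 90.1 and 97.7 with SWNT/LP, 129, 104 and 99.9 with CpG, 112, 109 and 109 with CpG+SWNT/LP and 157, 136 and 135 with SWNT/CpG. The 3 SWNT/CpG libraries were above all others. The rise was 1.48-fold (log2 0.56 ± 0.13, adjusted p = 0.00347; 0.48 with 0.0819 without untreated replicate 2). CpG (0.26 ± 0.13, adjusted p = 0.157) and CpG+SWNT/LP (0.19 ± 0.13, 0.275) did not pass the test, though a replicate block (0.19, 0.00125) and a fit of the compared groups alone (0.18, 0.00958) called the second. SWNT/CpG exceeded CpG+SWNT/LP by 0.37 ± 0.11 (adjusted p = 0.0331), a call lost when any 1 of the 6 libraries was left out (adjusted p from 0.0667 to 0.153), in run 2 alone (0.179) and with no filter on low counts (0.0981). It did not pass against CpG (0.30 ± 0.11, 0.1005), but was called there by DESeq2 (0.30, 0.0290), with a replicate block (0.44, 4.87e-10) and without CpG replicate 1 (0.43, 0.00763). In RAW-Blue, Tgfb1 was at 368 and 279 CPM untreated, 334 and 325 with SWNT/LP, 359.8 and 357 with CpG, 385 and 417 with CpG+SWNT/LP and 422 and 400.3 with SWNT/CpG. No RAW-Blue treatment was called; SWNT/CpG came nearest, with 0.35 ± 0.11 (adjusted p = 0.0514). Without untreated replicate 1 this was 0.56 and without replicate 2 it was 0.16. Leaving out replicate 1 gave 0.36 for CpG and 0.52 for CpG+SWNT/LP, against -0.04 and 0.12 without replicate 2.

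Macrophage Tgfb2 and Tgfb3 were too low to compare. Tgfb2 had 1 to 4 counts in each RAW-Blue library (26 in all 10) and was not tested. Tgfb3 had 8 to 25 counts and was not called in any treatment, with standard errors of 0.41 to 0.46 on the log2 scale. In the GENCODE M21 annotation Tgfb2 exons overlap the antisense gene Gm29491, and Tgfb3 exons overlap Gm37804 and Gm48008 on the other strand. Whether the counting used strand is not given in the sources used here, so reads of these partners cannot be told apart from those of the ligands.

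**Figure D2:**
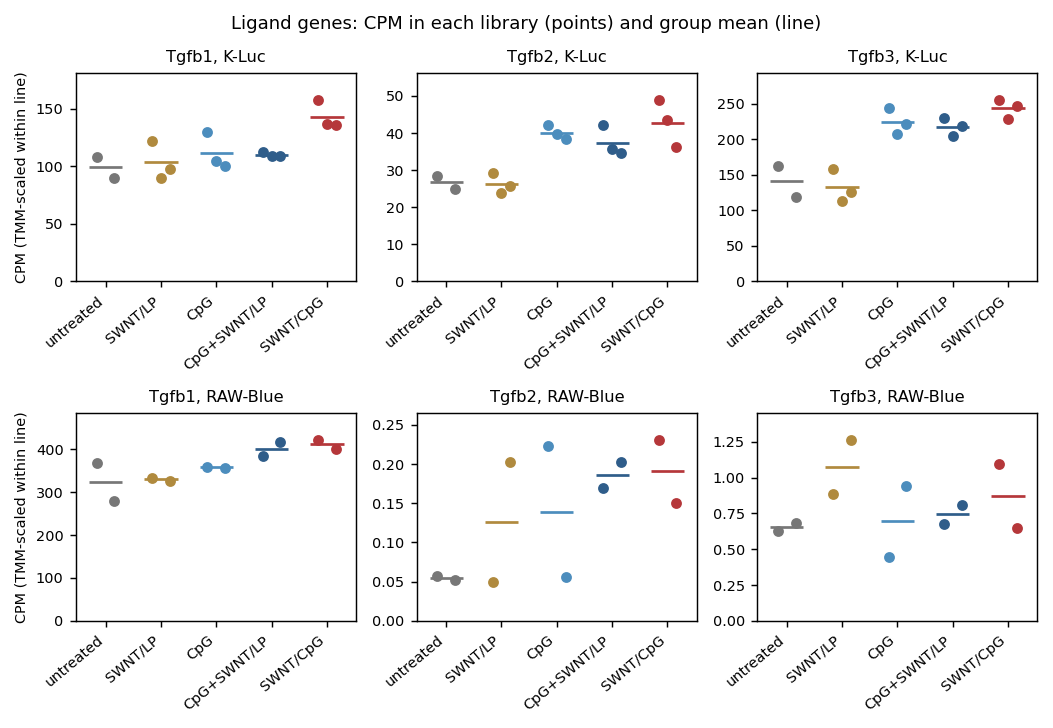
CPM of Tgfb1, Tgfb2 and Tgfb3 (y axis, linear from 0, a different scale in each panel) in every K-Luc and RAW-Blue library by treatment (x axis); points are libraries and lines are group means. In K-Luc, Tgfb2 and Tgfb3 form a low pair of groups without CpG and a high trio with it, and Tgfb1 is highest with SWNT/CpG; RAW-Blue Tgfb2 and Tgfb3 lie near 0.

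With CpG-bearing treatments the 2 receptors moved apart in the glioma cells, and in the macrophages Tgfbr2 fell with all 3 of them and Tgfbr1 with SWNT/CpG. Tgfbr2, the receptor that binds the ligand, was at 99.0 and 94.0 CPM in untreated K-Luc libraries, 103, 94.1 and 97.2 with SWNT/LP, 118, 111 and 121 with CpG, 109.8, 110.1 and 114 with CpG+SWNT/LP and 115, 114 and 114 with SWNT/CpG. It rose by 0.28 ± 0.06 (CpG, adjusted p = 0.00127), 0.21 ± 0.05 (CpG+SWNT/LP, 0.00611) and 0.25 ± 0.05 (SWNT/CpG, 0.00125) on the log2 scale. All 3 calls were lost without untreated replicate 2 (0.22 with adjusted p = 0.0987, 0.16 with 0.186 and 0.21 with 0.0703). In RAW-Blue it went the other way: 308 and 292 CPM untreated, 267 and 273 with SWNT/LP, 215 and 222 with CpG, 190.4 and 211 with CpG+SWNT/LP and 199.6 and 207 with SWNT/CpG. The 6 libraries given CpG lay below the 4 without it. It fell by 0.46 ± 0.07 with CpG (adjusted p = 0.00442), by 0.58 ± 0.07 with CpG+SWNT/LP (0.000697) and by 0.56 ± 0.07 with SWNT/CpG (0.000597). These stayed between -0.42 and -0.62 without either untreated library. The call for CpG was lost in a fit of the compared groups alone (-0.46, adjusted p = 0.140) and without CpG replicate 1 (-0.43). That for CpG+SWNT/LP was lost in a fit of the compared groups alone (-0.58, 0.0525). SWNT/LP was not called (-0.15 ± 0.07, adjusted p = 0.416), with -0.12 and -0.19 without untreated replicate 1 or 2. SWNT/CpG did not pass the test against CpG+SWNT/LP in either line (0.04 ± 0.05 in K-Luc, 0.02 ± 0.07 in RAW-Blue). Each library is bulk RNA, so fewer cells with a transcript and less of it per cell cannot be told apart.

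Tgfbr1, the partner kinase that signals to SMADs, was at 71.7 and 66.1 CPM in untreated K-Luc libraries, 57.8, 63.4 and 65.3 with SWNT/LP, 50.4, 58.6 and 60.2 with CpG, 60.8, 54.3 and 57.5 with CpG+SWNT/LP and 63.3, 56.6 and 53.0 with SWNT/CpG. It fell by 0.21 ± 0.08 (CpG, adjusted p = 0.0414), 0.24 ± 0.07 (CpG+SWNT/LP, 0.0210) and 0.24 ± 0.07 (SWNT/CpG, 0.0170), but both untreated libraries also lay above all 3 SWNT/LP libraries (-0.07 ± 0.08, 0.964). Each of the 3 calls was lost in 4 or 5 of 12 alternatives, among them leaving out either untreated library (adjusted p of 0.0741 and 0.342 for CpG, 0.0666 and 0.220 for CpG+SWNT/LP, 0.0550 and 0.194 for SWNT/CpG). They were also lost without CpG replicate 1 (0.127), without CpG+SWNT/LP replicate 1 or 2 (0.0990 and 0.0569) and without SWNT/CpG replicate 3 (0.0662), respectively. In RAW-Blue the untreated libraries disagreed (61.6 and 113 CPM), with 84.1 and 83.7 for SWNT/LP, 70.9 and 67.1 for CpG, 75.6 and 63.1 for CpG+SWNT/LP and 50.7 and 46.3 for SWNT/CpG. The SWNT/CpG libraries were the lowest of the 10. SWNT/CpG fell by 0.85 ± 0.23 (adjusted p = 0.0298), with -1.22 without untreated replicate 1 and -0.35 without replicate 2. That call was lost in a fit of the compared groups alone (0.142) and with no filter on low counts (0.1115). It was also lost without SWNT/CpG replicate 1 (-0.92) or 2 (-0.78). Without untreated replicate 1 the other 3 treatments lay lower as well (-0.71 for CpG, -0.70 for CpG+SWNT/LP and -0.43 for SWNT/LP). Without replicate 2 they were at 0.16, 0.17 and 0.45.

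The windows at the starts of the ligand gene and the receptor gene that rose together with CpG in K-Luc, Tgfb2 and Tgfbr2, are shown because both hold the SMAD-binding box CAGAC (or GTCTG on the other strand), written in capitals. They are RefSeq promoters of the GRCm38.p6 build, 250 bases before to 50 after the start, on the minus strand, at chr1:186705940-186706239 for Tgfb2 and chr9:116175314-116175613 for Tgfbr2, each 5′ to 3′ in the direction of transcription.
Tgfb2: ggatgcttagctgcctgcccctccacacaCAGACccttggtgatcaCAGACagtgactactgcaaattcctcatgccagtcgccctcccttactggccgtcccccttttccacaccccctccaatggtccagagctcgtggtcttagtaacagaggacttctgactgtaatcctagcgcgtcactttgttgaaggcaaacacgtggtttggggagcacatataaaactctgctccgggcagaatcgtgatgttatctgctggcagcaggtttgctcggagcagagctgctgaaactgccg
Tgfbr2: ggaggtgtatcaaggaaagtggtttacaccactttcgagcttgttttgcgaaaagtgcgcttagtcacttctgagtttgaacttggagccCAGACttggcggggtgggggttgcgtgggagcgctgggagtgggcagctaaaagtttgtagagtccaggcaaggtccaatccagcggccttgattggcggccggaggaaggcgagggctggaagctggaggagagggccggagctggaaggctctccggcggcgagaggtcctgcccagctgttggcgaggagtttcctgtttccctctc
Tgfb2 holds the box 221 and 204 bases before the start and Tgfbr2 160 bases before it. It lies also in 1 of the 2 Tgfbr1 windows, 203 bases before the start, and in no window of Tgfb1, Smad3 or Ski. Of all 32851 promoter windows of 300 bases, 49.6% hold at least 1 box and 16.2% at least 2, so its presence does not set these genes apart, and a match is no evidence of binding.

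Smad3 told coated from uncoated CpG in the glioma cells. It stood at 103 and 99.8 CPM in untreated K-Luc libraries, 109, 100.2 and 99.4 with SWNT/LP, 122, 123 and 126 with CpG, 118, 128 and 126 with CpG+SWNT/LP and 102, 105 and 106 with SWNT/CpG. The 6 libraries with uncoated CpG lay above the other 8. It rose by 0.27 ± 0.05 with CpG (adjusted p = 0.00132) and by 0.29 ± 0.05 with CpG+SWNT/LP (0.000571), and both calls were lost without untreated replicate 2 (0.18 with 0.139, and 0.21 with 0.0633). SWNT/CpG did not differ from untreated past the threshold (0.04 ± 0.05, 0.595). SWNT/CpG was lower than CpG+SWNT/LP by a log2 difference of -0.25 ± 0.04 (adjusted p = 0.000795) and lower than CpG by -0.23 ± 0.05 (0.00241), and both calls held in all 13 alternatives. In RAW-Blue, Smad3 was at 31.3 and 30.8 CPM untreated, 27.2 and 27.6 with SWNT/LP, 18.5 and 24.9 with CpG, 15.3 and 19.2 with CpG+SWNT/LP and 19.2 and 20.2 with SWNT/CpG, with every library given CpG below the 4 others. It fell by 0.52 ± 0.14 (CpG, adjusted p = 0.0472), 0.85 ± 0.15 (CpG+SWNT/LP, 0.00355) and 0.65 ± 0.14 (SWNT/CpG, 0.00933). Without either untreated library these values ranged from -0.51 to -0.86. The CpG call was lost in a fit of the compared groups alone (-0.51, adjusted p = 0.254) and without CpG replicate 1 (-0.32). That for SWNT/CpG was lost without its replicate 1 (-0.62) or 2 (-0.69). Coated and unjoined CpG were not called apart in RAW-Blue (0.19 ± 0.15, 0.641).

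Ski, which recruits repressor complexes to SMADs, was at 241 and 208 CPM in untreated K-Luc libraries, 247, 212 and 212 with SWNT/LP, 267, 258 and 266 with CpG, 266, 264 and 255 with CpG+SWNT/LP and 278, 279 and 280.4 with SWNT/CpG. It rose with the 3 CpG-bearing treatments by 0.27 ± 0.07 (adjusted p = 0.00596), 0.24 ± 0.06 (0.00924) and 0.33 ± 0.06 (0.000586). All 3 calls were lost without untreated replicate 2 (0.14 with 0.344, 0.13 with 0.351 and 0.22 with 0.0700). RAW-Blue Ski ran from 104 to 127 CPM over all 10 libraries, highest in an untreated library and lowest with SWNT/CpG. It was not called in any treatment, the log2 fold changes lying between -0.17 and -0.00. Without untreated replicate 2 the values were -0.19 with CpG and -0.22 with SWNT/CpG, and without replicate 1 they were -0.10 and -0.13.

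**Figure D3:**
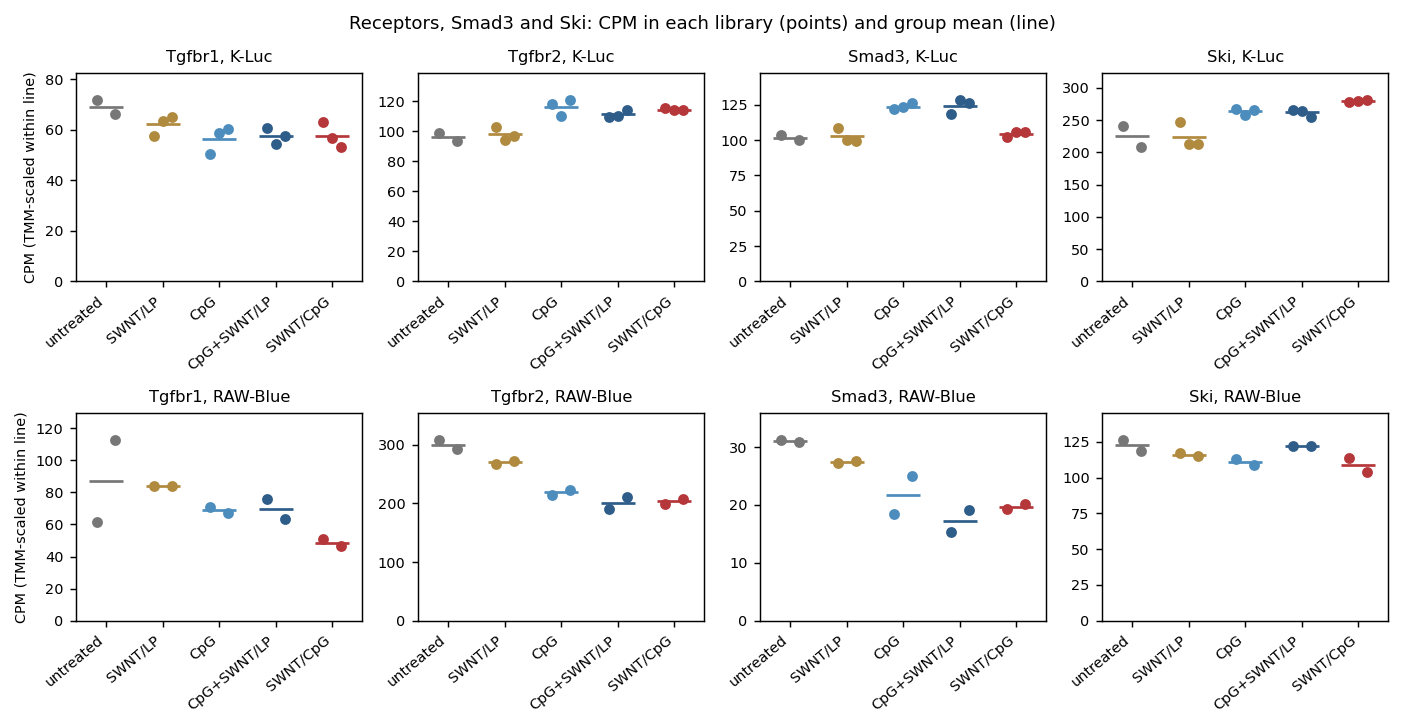
CPM of Tgfbr1, Tgfbr2, Smad3 and Ski (y axis, linear from 0, a different scale in each panel) in every library by treatment (x axis); points are libraries and lines are group means. Tgfbr2 and Smad3 rise with uncoated CpG in K-Luc and fall with it in RAW-Blue (the K-Luc calls were lost without untreated replicate 2), and K-Luc Smad3 with SWNT/CpG (102 to 106) lies at the untreated level.

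Pmepa1, Skil and Smad7 were highest with SWNT/CpG in the glioma cells, a difference on which Pmepa1 and Skil were chosen. Pmepa1 was at 248 and 175 CPM in untreated K-Luc libraries, 189, 161 and 175 with SWNT/LP, 161, 169 and 180.4 with CpG, 172, 161 and 172 with CpG+SWNT/LP and 467, 412 and 425 with SWNT/CpG. The 3 SWNT/CpG libraries lay far above the other 11, which the untreated replicate 1 led. Described with no test, SWNT/CpG was 2.13-fold above untreated (log2 1.09 ± 0.09), 2.58-fold above CpG+SWNT/LP (1.37 ± 0.08) and 2.44-fold above CpG (1.28 ± 0.08). Without SWNT/CpG there was no rise: SWNT/LP (-0.15 ± 0.10, adjusted p = 0.964) and CpG (-0.19 ± 0.10, 0.126) did not pass the test. CpG+SWNT/LP, a side of the difference that chose Pmepa1, lay 0.28 ± 0.09 below untreated, described with no test. That value was -0.10 without untreated replicate 1, and -0.17 and -0.28 without CpG+SWNT/LP replicate 1 or 2. Without untreated replicate 2 the value for CpG was -0.45.

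In the macrophages Pmepa1 did the reverse, from a level near the floor. It was at 4.51 and 4.68 CPM in untreated RAW-Blue libraries, 5.17 and 5.47 with SWNT/LP, 4.30 and 3.66 with CpG, 6.32 and 5.21 with CpG+SWNT/LP and 0.405 and 0.900 with SWNT/CpG. These last values are 7 and 18 counts, against 66 to 112 in the other 8 libraries. Described with no test, SWNT/CpG stood at 0.147 times untreated (log2 -2.77 ± 0.28), 0.117 times CpG+SWNT/LP (-3.09 ± 0.28) and 0.169 times CpG (-2.56 ± 0.29). The value against untreated was -2.79 without untreated replicate 1 and -2.74 without replicate 2, and over all alternatives it lay between -3.48 and -2.35. The other RAW-Blue treatments did not pass the test for Pmepa1 (-0.21 ± 0.21 for CpG, 0.21 ± 0.20 for SWNT/LP and 0.32 ± 0.20 for CpG+SWNT/LP). By the authors' RPKM untreated Pmepa1 averaged 31.4 in K-Luc cells and 0.6 in RAW-Blue.

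Skil, the SnoN corepressor and an early SMAD target, was also highest with SWNT/CpG in K-Luc, the difference it was chosen for. Its CPM was 212 and 193 untreated, 176, 189.8 and 185 with SWNT/LP, 159, 181 and 177 with CpG, 163, 175 and 165 with CpG+SWNT/LP and 269, 254 and 242 with SWNT/CpG. SWNT/CpG lay above, and every other treated library below, both untreated ones. Described with no test, SWNT/CpG was 0.34 ± 0.06 above untreated and 0.60 ± 0.05 above CpG+SWNT/LP on the log2 scale. Skil fell by 0.20 ± 0.07 with CpG (adjusted p = 0.0238). CpG+SWNT/LP, a side of the difference that chose Skil, lay 0.26 ± 0.06 below untreated, described with no test. The CpG call was lost without either untreated library (0.111 and 0.0772) or CpG replicate 1 (0.0694), and the other without untreated replicate 1 (0.0588) or CpG+SWNT/LP replicate 1 (0.0614). In RAW-Blue, Skil was at 47.4 and 66.0 CPM untreated, 62.1 and 67.4 with SWNT/LP, 79.5 and 76.3 with CpG, 82.6 and 72.9 with CpG+SWNT/LP and 56.8 and 57.1 with SWNT/CpG. Uncoated CpG gave the highest values and SWNT/CpG fell between the untreated libraries (0.01 ± 0.14, adjusted p = 0.978). CpG missed the threshold (0.46 ± 0.13, 0.0574) and CpG+SWNT/LP passed it (0.46 ± 0.13, 0.0397). That call was lost in a fit of the compared groups alone (0.46, 0.220) and without CpG+SWNT/LP replicate 1 (0.36) or 2 (0.54). Without untreated replicate 1 the values were 0.24 and 0.24, and without replicate 2 they were 0.72 and 0.71. SWNT/LP and SWNT/CpG were at -0.03 and -0.21 without untreated replicate 1, and at 0.45 and 0.26 without replicate 2. The difference between SWNT/CpG and CpG+SWNT/LP did not pass (-0.45 ± 0.13, 0.164).

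Smad7, the inhibitory SMAD, was at 40.5 and 42.3 CPM in untreated K-Luc libraries, 43.2, 40.4 and 40.8 with SWNT/LP, 40.2, 38.6 and 42.9 with CpG, 34.5, 37.9 and 43.7 with CpG+SWNT/LP and 46.0, 50.3 and 54.0 with SWNT/CpG. The SWNT/CpG libraries were the highest 3. They exceeded CpG+SWNT/LP by 0.37 ± 0.06 (adjusted p = 0.000654) and CpG by 0.36 ± 0.07 (0.00132), in all 13 alternatives of each, and untreated by 0.25 ± 0.07 (0.0123; 0.16 with 0.303 without untreated replicate 2). RAW-Blue Smad7 went the other way with SWNT/CpG but less firmly: 6.56 and 4.16 CPM untreated, 5.91 and 6.13 with SWNT/LP, 5.98 and 4.99 with CpG, 8.13 and 7.69 with CpG+SWNT/LP and 4.33 and 3.05 with SWNT/CpG. SWNT/CpG overlapped untreated (-0.54 ± 0.24, adjusted p = 0.137), with -0.18 without untreated replicate 1 and -0.84 without replicate 2. It was the lower in every library against CpG+SWNT/LP (-1.11 ± 0.23) and missed the threshold (0.0655), while 4 of 9 alternatives called it. CpG+SWNT/LP was not called against untreated (0.57 ± 0.22, 0.1005), with 0.93 without untreated replicate 1 and 0.27 without replicate 2.

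**Figure D4:**
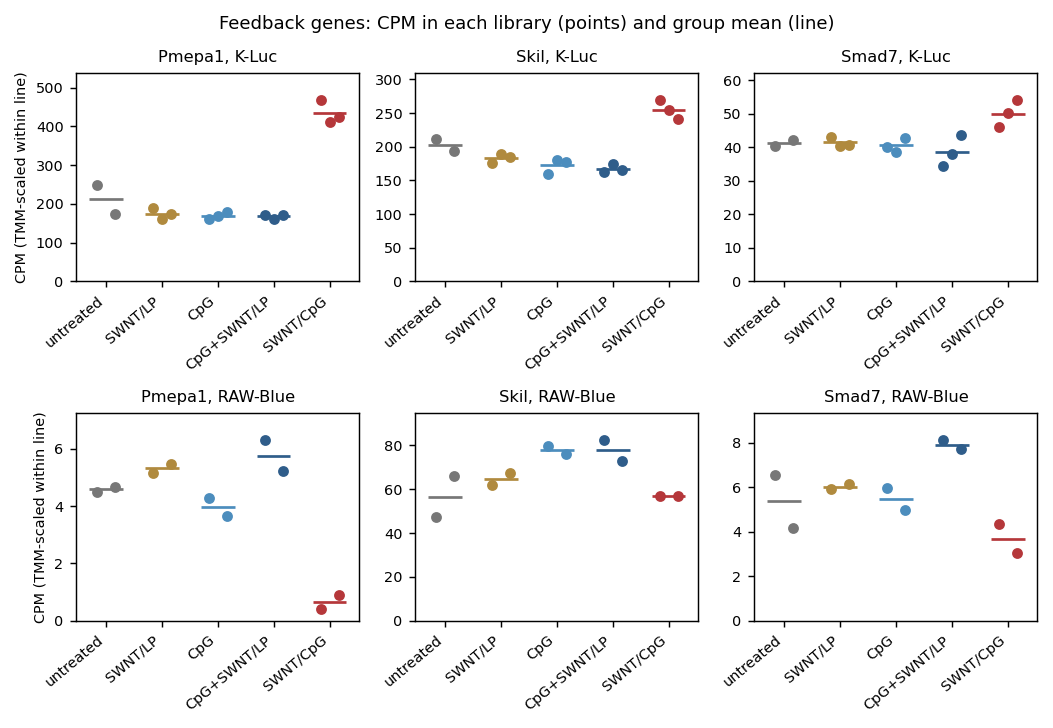
CPM of Pmepa1, Skil and Smad7 (y axis, linear from 0, a different scale in each panel) in every library by treatment (x axis); points are libraries and lines are group means. With SWNT/CpG all 3 genes are highest in K-Luc (Pmepa1 at 412 to 467), and Pmepa1 (0.405 and 0.900) and Smad7 (3.05 and 4.33) have their lowest means in RAW-Blue.

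Pmepa1 and Skil are left out of the counts between SWNT/CpG and unjoined or free CpG in K-Luc, and Pmepa1 in RAW-Blue, since those differences chose them. Between SWNT/CpG and CpG+SWNT/LP the K-Luc test called 2 of the other 8 genes higher (Smad7 and Tgfb1) and 1 lower (Smad3), where 17.7% of all genes were called (8.54% higher, 9.12% lower). Between SWNT/CpG and CpG it called 1 higher (Smad7; 7.29% of all genes) and 1 lower (Smad3; 7.58%), with 14.9% in either direction. In RAW-Blue edgeR called 0 of the 8 genes in either comparison, where 0.825% and 0.842% of all genes were called (0.356% and 0.174% lower). Of these 8, 3 and 2 had an unadjusted p under 0.05, and DESeq2 called 1 (Smad7) against CpG+SWNT/LP and 0 against CpG. The genes were chosen with these comparisons known, so nothing is read from the counts.

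Genes whose K-Luc levels most resembled those of Pmepa1 were ranked by Pearson correlation of log2 CPM over the 14 libraries, which share their 5 groups, among 10964 genes. The first 5 were Sorcs2 (r = 0.97), Anxa8 (0.97), Nupr1 (0.96), Endod1 (0.96) and Spsb1 (0.95). By rank the likeness was weaker, with Spearman values of 0.83, 0.50, 0.77, 0.57 and 0.67 in the same order. Over the 11 libraries without SWNT/CpG, a limit set after seeing the data, r was 0.64, 0.56, 0.54, 0.46 and 0.30. Over the 10 RAW-Blue libraries the correlation with Pmepa1 was -0.72 for Nupr1, -0.58 for Endod1 and 0.53 for Spsb1, and Sorcs2 and Anxa8 were too low to compare. Mean Nupr1, a stress-induced nuclear protein, was 70.3 CPM in untreated and 123 in SWNT/CpG-treated K-Luc, and 11.4 and 26.3 in RAW-Blue.

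The rest of the pathway was described through 4 lists with 61 genes, chosen with earlier results of these data known. Their K-Luc counts stand beside 17.9%, 16.1% and 21.8% of all genes called higher with CpG, CpG+SWNT/LP and SWNT/CpG, and 18.4%, 17.8% and 21.3% called lower. In K-Luc the list of latent TGF-beta storage and activation, 12 genes tested, had 5 called higher with CpG, 6 with CpG+SWNT/LP and 7 with SWNT/CpG, and none lower in any of the 3 (41.7%, 50% and 58.3% of the list in either direction; with SWNT/CpG a median log2 fold change of 0.42, beside 0.01 over all genes). Thbs1, which activates latent TGF-beta, rose by 0.71 ± 0.08, 0.61 ± 0.07 and 1.04 ± 0.07 (adjusted p = 9.51e-06, 2.38e-05 and 2.33e-08), from 3040 ± 321 CPM (SD, n = 2) to 6178 ± 81.6 (n = 3) with SWNT/CpG. With SWNT/CpG Ltbp2, a latent TGF-beta binding protein of the matrix, rose by 1.30 ± 0.12 (3.72e-06) and the microfibril gene Fbn1 by 0.66 ± 0.06 (7.52e-07). Against CpG+SWNT/LP, where 8.54% of all genes were called higher and 9.12% lower, SWNT/CpG was higher for 6 of the 12. Among these were Fbn1 (0.46 ± 0.06), Thbs1 (0.43 ± 0.06) and the integrin subunit Itgav (0.29 ± 0.04). The 22 induced targets, 21 of them tested, had 13 called higher and 1 lower with SWNT/CpG (median 0.57), 7 and 1 with CpG, and 10 and 1 with CpG+SWNT/LP. The contractile gene Acta2 rose by 1.20 ± 0.07 with SWNT/CpG (adjusted p = 5.45e-09), 0.88 ± 0.08 with CpG and 0.86 ± 0.07 with CpG+SWNT/LP, and Tagln and the collagen gene Col1a2 rose by 0.70 ± 0.07 and 0.60 ± 0.05 with SWNT/CpG. Some targets differed between SWNT/CpG and CpG+SWNT/LP. With SWNT/CpG, Ctgf, a matrix-associated growth factor, was higher by 0.85 ± 0.10 (adjusted p = 3.95e-05) and the oxidase gene Nox4 by 0.62 ± 0.08 (3.16e-05). Hmga2, a chromatin protein, was the target called lower with all 3 CpG-bearing treatments (by 0.51 with SWNT/CpG).

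Of the 14 SMADs and regulators, K-Luc SWNT/CpG called 6 higher and 2 lower, CpG 1 and 2, and CpG+SWNT/LP 1 and 1. In either direction that was 57.1%, 21.4% and 14.3% of the list, beside 43.1%, 36.2% and 33.9% of all genes. Ldlrad4, a relative of Pmepa1 that also binds SMADs, rose with SWNT/CpG by 0.88 ± 0.08 (adjusted p = 4.13e-07) and was 0.69 ± 0.07 above CpG+SWNT/LP (3.51e-06). The SMAD corepressor Tgif1 rose by 0.32 ± 0.07 and Tgif2 fell by 0.47 ± 0.10 with SWNT/CpG (adjusted p = 0.00179 and 0.00154), and both calls were lost without untreated replicate 2 (0.26 with 0.0849, and -0.43 with 0.0633). Smad6, an inhibitory SMAD, rose by 0.80 ± 0.11 with CpG and 0.81 ± 0.10 with CpG+SWNT/LP, and by less, 0.36, with SWNT/CpG. The co-receptors and activin branch, 8 tested, had 2, 1 and 3 called higher with CpG, CpG+SWNT/LP and SWNT/CpG and none lower, 25%, 12.5% and 37.5% of the list. There the activin antagonist Fst rose with all 3, by 1.19 ± 0.17, 1.09 ± 0.16 and 0.64 ± 0.17, the last lost without untreated replicate 1 (0.52, adjusted p = 0.0670). With SWNT/LP none of the 55 pathway genes was called in K-Luc by edgeR or DESeq2, and 6 had an unadjusted p under 0.05 with each tool. All 4 lists together had 15 higher and 3 lower with CpG, 18 and 2 with CpG+SWNT/LP and 29 and 3 with SWNT/CpG. In the same order, the shares called in either direction were 32.7%, 36.4% and 58.2%, beside 36.2%, 33.9% and 43.1% of all genes. The lists were chosen with earlier results of these data known, so nothing is read from these shares or totals. Without untreated replicate 2, which leaves 1 untreated library, of run 1, these totals fell, as did calls among all genes.

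In RAW-Blue 38 pathway genes were tested. With CpG 3 were called higher and 4 lower, with CpG+SWNT/LP 10 and 5, with SWNT/CpG 8 and 5, and with SWNT/LP 1 and 0, the last being Hmga2 (0.48 ± 0.08), a call lost without either SWNT/LP library (adjusted p = 0.272 and 0.352). With the 3 CpG-bearing treatments 18.4%, 39.5% and 34.2% of the 38 were called in either direction, beside 10.8%, 20.3% and 23.2% of all genes. As in K-Luc, nothing is read from these shares. Leaving out a library leaves a group with 1, and calls among all genes then changed too, so nothing is read from the totals in such fits. Hmga2 rose by 0.75 ± 0.08, 1.05 ± 0.08 and 1.12 ± 0.08 with the 3 CpG-bearing treatments (adjusted p = 0.000327, 2.46e-05 and 1.39e-05). Tsc22d1, a TGF-beta-stimulated transcription factor, fell by 0.62 ± 0.09, 0.52 ± 0.09 and 0.74 ± 0.09. Nrros, which holds latent TGF-beta on macrophages, fell by 0.40 ± 0.08, 0.48 ± 0.08 and 0.44 ± 0.08, and the first of these calls was lost without either CpG library. Fits of the compared groups alone lost all 3 Nrros calls (adjusted p = 0.236, 0.102 and 0.0790). They also lost those of Tsc22d1 with CpG (0.0842) and CpG+SWNT/LP (0.0667). Nedd4l, a ubiquitin ligase of SMADs, rose by 1.64 ± 0.16 with CpG+SWNT/LP and 1.09 ± 0.17 with SWNT/CpG. Gadd45b, a stress-response gene, was the pathway gene called between SWNT/CpG and CpG+SWNT/LP (-0.81 ± 0.11, adjusted p = 0.0233), a call lost without any 1 of the 4 libraries (adjusted p from 0.0669 to 0.285). Between SWNT/CpG and CpG no pathway gene was called by edgeR, which gave 9 an unadjusted p under 0.05, and 1 was called by DESeq2.

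**Figure D5:**
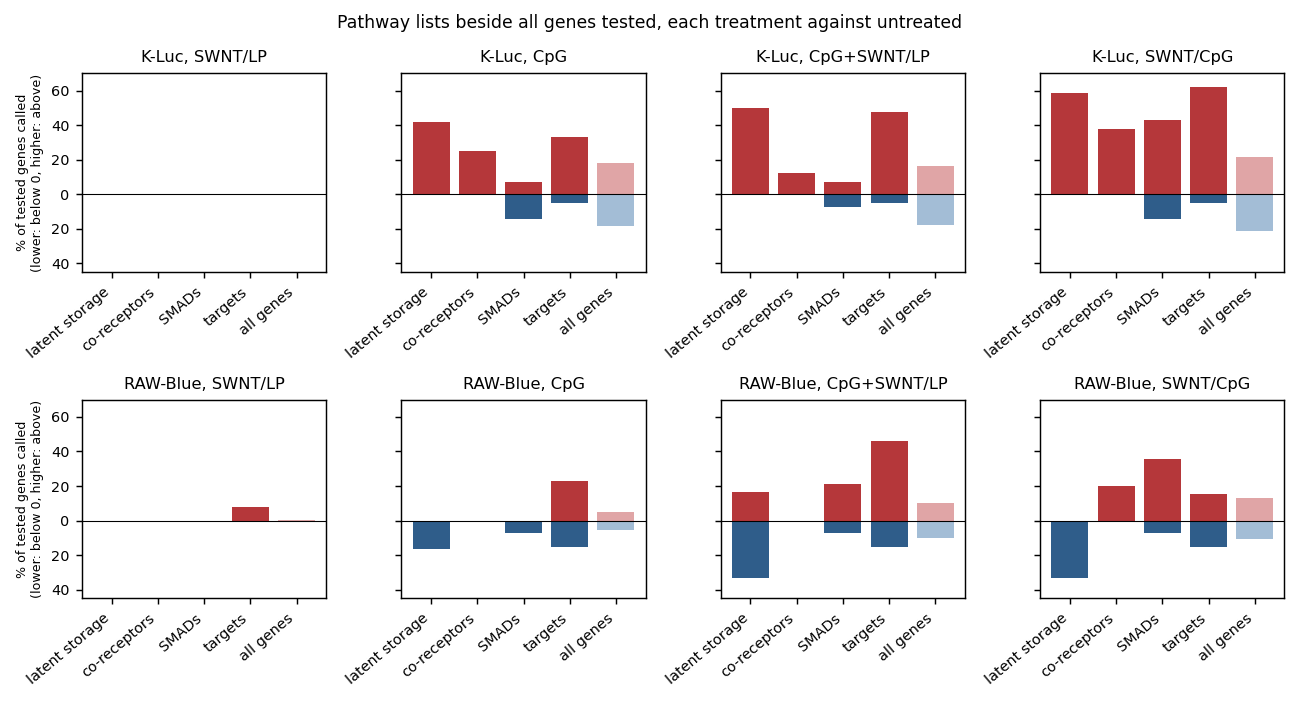
Share of the tested genes called higher (bars above 0) or lower (bars below 0) than untreated, in percent (y axis), for the 4 pathway lists and for all genes (x axis; pale bars), by treatment and line. In K-Luc the lists together have more genes called higher than lower with CpG (15 against 3), CpG+SWNT/LP (18 against 2) and SWNT/CpG (29 against 3). Of all genes, 17.9%, 16.1% and 21.8% were called higher and 18.4%, 17.8% and 21.3% lower. With SWNT/LP no list has a called gene in K-Luc.

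Whether the pathway lists responded differently in the 2 lines was tested by the difference of the responses in 1 fit over both lines, in which 55 of the 61 genes were tested. The SWNT/CpG response differed for 15 of them, 5 higher and 10 lower in RAW-Blue (25.4% of all genes were called), and the CpG response for 15, 9 higher and 6 lower (21.9%; 10 genes without RAW-Blue untreated replicate 2). Hmga2 was called in opposite directions, lower in K-Luc and higher in RAW-Blue, with a difference of 1.63 ± 0.11 for SWNT/CpG (adjusted p = 4.59e-10) and 1.44 ± 0.11 for CpG (1.43e-08). Bhlhe40, a transcription factor, rose with SWNT/CpG in K-Luc (0.47) and fell in RAW-Blue (-0.78), a difference of -1.25 ± 0.17 (2.08e-05). Tgif1, Tgif2 and Smurf1 were among the genes called in the same direction in both lines with SWNT/CpG, for Tgif1 and Tgif2 with the K-Luc limit given above and for Tgif1 not without RAW-Blue SWNT/CpG replicate 1 (adjusted p = 0.0806). For the 10 genes themselves the direction between the lines helped to choose them, and their differences were not tested. Their values stand side by side above: Tgfbr2 and Smad3 rose with uncoated CpG in K-Luc and fell in RAW-Blue, and Pmepa1 moved with SWNT/CpG from 212 ± 51.9 to 435 ± 28.8 CPM (SD, n = 2 and 3) in the glioma cells and from 4.60 to 0.652 CPM in the macrophages.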

How the data were processed

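Poly(A) RNA of 14 K-Luc and 10 RAW-Blue libraries was sequenced with a stranded kit, per the labels' protocols. The submitters' processing notes name the mm9 build, HTSeq 0.6.0 for counting and TopHat2 2.0.14 for alignment. Neither annotation nor strand setting is given in the sources used here. The authors deposited raw read counts per gene, and RPKM values rounded to 1 decimal; for 1370 genes RPKM followed the counts of their library with a ratio of 0.969 to 1.133. The test on counts was edgeR's (version 4.0.16 in R 4.3.3; quasi-likelihood, TMM scaling, filterByExpr with a minimum count of 10 and a total of 15, robust), each line separately (K-Luc with a term for the sequencing run). This kept 12420 genes in K-Luc and 11514 in RAW-Blue. Differences between lines came from 1 fit over 24 libraries and 13350 genes. P-values were adjusted by Benjamini-Hochberg over all genes tested, and a call is an adjusted p under 0.05. CPM values are TMM-scaled within a line, so levels between lines and genes use RPKM. The scripts were tested on simulated data with 200 changed genes.

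The 10 genes, the 4 pathway lists and the marker lists were chosen with earlier results of these data known. Pathway genes were named where they were among the 3 called genes of smallest p in a list and comparison, or after their values were seen (Smurf1, called in both lines). As alternatives, each library was left out in turn, the fit was limited to run 2 or to the groups compared, the run term or the count filter was dropped, a replicate block was added, and DESeq2 1.42.0 or edgeR with DESeq2's scaling was used. The values of 1 listed target are not reported here, though it is in the counts. Promoter sequences came from RefSeq (GRCm38.p6). Pmepa1, Skil and Tgfb3 had no entry, and Smad7 is not shown.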

Additional observations from a re-analysis of the deposited data

Results flagged for a closer look

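For several of the 10 genes every treated library lay above both untreated libraries in one line and below both in the other. These differences between the lines were not tested, because the direction helped to choose the genes. The share of all genes that parted in this way was not computed, and groups of 2 or 3 libraries part easily. Nothing is therefore read from how many did. In RAW-Blue, Skil and Ski with CpG, Pmepa1 with CpG+SWNT/LP and Ski with SWNT/CpG were not called. The values are log2 fold changes against untreated cells, K-Luc first and RAW-Blue second. With CpG, they were -0.20 and 0.46 for Skil, 0.27 and -0.14 for Ski, 0.27 and -0.52 for Smad3, and 0.28 and -0.46 for Tgfbr2. With CpG+SWNT/LP, they were -0.28 and 0.32 for Pmepa1, -0.26 and 0.46 for Skil, 0.29 and -0.85 for Smad3, and 0.21 and -0.58 for Tgfbr2. With SWNT/CpG, they were 1.09 and -2.77 for Pmepa1, 0.33 and -0.17 for Ski, and 0.25 and -0.56 for Tgfbr2. For Tgfbr2 this held with all 3 CpG-bearing treatments.

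Among the pathway genes the difference itself was tested, by edgeR in a fit over both lines. With SWNT/CpG it was called for 15 of the 55 tested, beside 25.4% of all genes. With CpG it was called for 15, beside 21.9%. Nothing is read from these counts, and 38 pathway genes were high enough to test within RAW-Blue alone. The difference is given as the RAW-Blue minus the K-Luc log2 fold change. For SWNT/CpG it was -1.39 for Ltbp2, -0.75 for Ltbp4 and -0.42 for Itgav, which store or activate the latent ligand. It was -0.74 for Smad6, 1.09 for Nedd4l, 0.61 for Usp15, -0.99 for Tgif2, 0.34 for Ppm1a and -2.68 for Ldlrad4 among the SMAD regulators, and -0.83 for Tsc22d1, -1.25 for Bhlhe40 and 1.63 for Hmga2 among the targets. Adjusted p ranged from 4.59e-10 (Hmga2) to 0.0462 (Ltbp2). Ldlrad4 had 3 counts in each RAW-Blue SWNT/CpG library, so its value depends on the fit and is no bound.

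For CpG the difference was -0.81 for Ltbp4, -1.48 for Smad6, 0.70 for Usp15, -0.74 for Tgif2, 0.26 for Ppm1a and -1.98 for Ldlrad4. Among the targets it was -0.74 for Tsc22d1, 0.56 for Gadd45b and 1.44 for Hmga2. Without RAW-Blue untreated replicate 1 the calls were lost for Ltbp2 (adjusted p = 0.109) and Smad6 (0.289) with SWNT/CpG, and for Tgif2 (0.0526) and Ldlrad4 (0.0653) with CpG. Without replicate 2 they were lost for Ltbp2 (0.395) with SWNT/CpG and for Ldlrad4 (0.0534), Gadd45b (0.0842) and Ppm1a (0.0948) with CpG.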

How the results depend on the processing

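Of 1225 values of the 10 genes recomputed under an alternative, 1114 kept their direction and their side of the threshold, 65 lost a call, 44 gained one and 2 reversed. The 2 were RAW-Blue SWNT/LP values without untreated replicate 2, -0.16 for Tgfb1 and 0.45 for Tgfbr1 (0.24 and -0.43 without replicate 1). Of 1199 pathway values 1 reversed, the SWNT/CpG difference between lines of Trim33, at 0.29 without that library and -0.27 without replicate 1 (chosen after seeing the data, like all pathway counts within a line and the omission of RAW-Blue untreated libraries from the difference between lines). Fits with only the compared groups called 8 of the 10 genes between K-Luc SWNT/CpG and CpG+SWNT/LP (5 in the fit over all groups) and, in RAW-Blue, 0 with CpG (2), 1 with CpG+SWNT/LP (3), 4 between SWNT/CpG and CpG+SWNT/LP (1) and 4 between SWNT/CpG and CpG (1). Run 2 alone called 5 with K-Luc CpG+SWNT/LP (8). Between RAW-Blue SWNT/CpG and CpG+SWNT/LP, DESeq2 and no count filter each called 2 (1). Without the run term 9 pathway genes differed between lines with CpG (15). Counts between SWNT/CpG and the other CpG groups take in Pmepa1 and Skil, chosen on them. For these alternatives the cause was not tested.

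Leaving out each library in turn gave counts of 2 to 7 with CpG, 3 to 8 with CpG+SWNT/LP and 4 to 9 with SWNT/CpG in K-Luc. In RAW-Blue it gave 0 to 5 with CpG, 0 to 4 with SWNT/LP, 2 to 6 with CpG+SWNT/LP, 2 to 8 with SWNT/CpG and 0 to 1 between SWNT/CpG and CpG. Where this left a group with 1 library, that library was assumed to vary like the other groups.

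The replicate numbers were not treated as pairs in the main fits. Same-numbered libraries had correlations of -0.03 to 0.51 in K-Luc and -0.10 to 0.18 in RAW-Blue. For K-Luc the median was 0.202, against -0.094 for libraries of different numbers (-0.457 to 0.332), and for RAW-Blue 0.023 against -0.023. K-Luc libraries of the same number were thus more alike, which the main fit does not model. With the number as a replicate block, 2 genes instead of 1 were called between RAW-Blue SWNT/CpG and CpG+SWNT/LP, 7 instead of 5 in K-Luc and 6 instead of 4 against CpG in K-Luc.

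Among all genes, counts moved by over 1.5 times as follows. In K-Luc, CpG called 4498 (2543 with only the compared groups, 1531 without untreated replicate 2), CpG+SWNT/LP 4213 (2043 in run 2 alone, 1454 without untreated replicate 2), SWNT/CpG 5347 (2770 without it) and SWNT/LP 16 (0 to 61). SWNT/CpG called 2194 against CpG+SWNT/LP (1177 to 4009) and 1847 against CpG (1091 to 3610). In RAW-Blue, CpG called 1241 (125 to 5186), SWNT/LP 55 (1 to 4207), CpG+SWNT/LP 2332 (443 to 5500), SWNT/CpG 2673 (899 to 5951), and SWNT/CpG 95 against CpG+SWNT/LP (2 to 832) and 97 against CpG (0 to 923). Between lines the CpG response called 2926 (up to 4463). Counts of 26 and 152 in all for RAW-Blue Tgfb2 and Tgfb3 limit what can be said of them there.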
